A study of Mus musculus with 110 samples.

Results

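The 43 genes described here belong to the gene families of calcium entry, release and pumping. They encode subunits of voltage-gated calcium channels or, for some Cacng genes, of AMPA-type glutamate receptors. They also encode the ryanodine and inositol trisphosphate (IP3) receptors that release calcium from stores. The 43 include the pumps that remove calcium from the cytosol and the proteins of store-operated entry as well. They were chosen by symbol from the 24056 gene rows used: the pore-forming Cacna1, the Cacna2d, the Cacnb and the Cacng channel subunits, Ryr1 to Ryr3, Itpr1 to Itpr3, the sarco/endoplasmic reticulum pumps Atp2a1 to Atp2a3, the plasma membrane pumps Atp2b1, Atp2b2 and Atp2b4 (Atp2b3 was left out by that rule), Stim1, Stim2 and Orai1 to Orai3. The rule reads symbols alone, though the gene groups were picked with earlier results of these data known. In all, 41 of the 43 were read often enough to be tested in every library set. The retinal channel gene Cacna1f, at 0 to 5 counts in any library, and the fast-muscle pump gene Atp2a1, at 0 to 11 counts, were not.

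In neurons, calcium that enters through voltage-gated channels triggers transmitter release, shapes firing and starts signalling to the nucleus. The pore-forming subunit sets the channel type, while alpha2delta and beta subunits bring it to the membrane and tune its gating. Ryanodine and IP3 receptors open the endoplasmic reticulum store, SERCA pumps refill it, plasma membrane pumps expel calcium from the cell, and STIM proteins sense an emptied store and open ORAI channels. The projection neurons of the striatum, the cells hit hardest in Huntington's disease, are rich in the type 1 IP3 receptor, and astrocytes signal largely through calcium released by the type 2 receptor.

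The study asked what lowering mutant huntingtin, the protein altered in Huntington's disease, in astrocytes or in neurons does to the RNA of each cell type. Its mice all carry the strain label R6/2 (Jax #006494), R6/2 being a line that expresses a fragment of human mutant huntingtin, and they were either R6/2 or NCAR, a label that the sources used here do not spell out. Each received an adeno-associated virus (AAV) carrying a ZFP, a zinc finger protein that represses mutant huntingtin, or Delta, the control. ND stands for NCAR mice given Delta and NZ for NCAR mice given the ZFP, while RD and RZ are the R6/2 mice given Delta and the ZFP. RNA bound to ribosomes tagged with HA (RiboTag) was pulled down (IP) from astrocytes in the MG and n_ZFP_a_Rpl sets and from neurons in the hSyn and n_ZFP_n_Rpl sets, and the tissue RNA (Input) was read in the hSyn, n_ZFP_a_Rpl and n_ZFP_n_Rpl sets. The labels do not give the tissue, the age, the promoters, the cell type that carried the ZFP in each set, what the set names stand for, or whether a replicate is 1 animal. All p-values therefore measure the spread between these libraries, which may in part be technical.

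The 110 libraries held 26.4 M to 72.6 M counted reads each, with 3 to 5 libraries per condition in a set and fraction. The pulldowns carried their labelled cell type to different degrees. In the n_ZFP_a_Rpl set, 12 of 12 astrocyte marker genes were higher in the IP than in the Input, yet so were 9 of 10 pan-neuronal markers and 5 of 14 projection neuron markers (6 of the 14 were lower). In the neuron sets, 14 of 14 (hSyn) and 13 of 14 (n_ZFP_n_Rpl) projection neuron markers were higher in the IP, and 3 of 12 and 0 of 12 astrocyte markers were. The MG set has no Input among the libraries analysed here. Its ND libraries held a sum of 20545 to 25889 CPM (counts scaled to library size) over the 12 astrocyte markers, against 5718 to 8207 in the hSyn IP, which was normalised separately. No marker gene of these lists was at 0 in every library. Projection neuron markers summed to 10585 to 11094 CPM in the ND libraries of the MG IP and to 10744 to 12581 CPM in those of the n_ZFP_a_Rpl IP, so neuronal RNA was read in both astrocyte pulldowns. The 8 markers of cortical excitatory neurons summed to 365 to 1304 CPM in ND and 291 to 758 CPM in RD of the n_ZFP_n_Rpl IP. In ND of the hSyn, MG and n_ZFP_a_Rpl IPs they held 27.6 to 64.3, 47.4 to 75.6 and 54.9 to 105 CPM. The part of this uneven cortical RNA in the changes below was not tested.

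Each gene below is located on the RefSeq mouse assembly GRCm38.p6, the build that matches the mm10 alignment. Promoter windows were found for 34 of the 43 genes, and those of Cacna1e, Cacna2d3 and Cacng7 lie inside the span given for the gene, before a start within it. The 250 bases before the transcription start are shown for 4 genes that fell in R6/2 mice, for the largest change within a role group or, for Orai2, the store-operated entry group, and for Cacng7, the gene that rose in most pulldowns. They were searched on both strands for TGACGTCA (the cAMP response element), TATAAA (the TATA box), CCAAT and CACGTG (the E-box), of which the first and the last read alike on both strands. The capitals mark CCAAT and CACGTG. Sequences run 5′ to 3′ on the strand of the gene.

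Cacna1e (chr1:154725921-154726170, minus strand): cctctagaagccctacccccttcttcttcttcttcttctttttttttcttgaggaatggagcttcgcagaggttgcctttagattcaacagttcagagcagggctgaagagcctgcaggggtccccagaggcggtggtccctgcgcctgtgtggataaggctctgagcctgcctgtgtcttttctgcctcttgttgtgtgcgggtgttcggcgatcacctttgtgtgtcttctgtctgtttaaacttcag

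Cacna2d3 (chr14:29721865-29722114, minus strand): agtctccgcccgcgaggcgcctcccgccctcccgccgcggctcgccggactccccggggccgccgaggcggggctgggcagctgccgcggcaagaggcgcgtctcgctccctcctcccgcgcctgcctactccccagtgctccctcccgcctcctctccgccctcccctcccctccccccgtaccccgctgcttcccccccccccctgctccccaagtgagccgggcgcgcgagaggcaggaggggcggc

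Ryr1 (chr7:29125152-29125401, minus strand): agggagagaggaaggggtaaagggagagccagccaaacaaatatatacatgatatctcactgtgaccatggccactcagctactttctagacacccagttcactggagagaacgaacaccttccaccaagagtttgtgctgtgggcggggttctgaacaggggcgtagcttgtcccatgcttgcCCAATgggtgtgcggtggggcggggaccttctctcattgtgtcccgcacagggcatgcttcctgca

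Orai2 (chr5:136170657-136170906, minus strand): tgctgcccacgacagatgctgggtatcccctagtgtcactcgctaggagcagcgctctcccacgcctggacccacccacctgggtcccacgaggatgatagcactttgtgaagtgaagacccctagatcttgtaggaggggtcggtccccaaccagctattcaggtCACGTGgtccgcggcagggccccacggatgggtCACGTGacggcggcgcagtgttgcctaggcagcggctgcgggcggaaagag

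Cacng7 (chr7:3332575-3332824, plus strand): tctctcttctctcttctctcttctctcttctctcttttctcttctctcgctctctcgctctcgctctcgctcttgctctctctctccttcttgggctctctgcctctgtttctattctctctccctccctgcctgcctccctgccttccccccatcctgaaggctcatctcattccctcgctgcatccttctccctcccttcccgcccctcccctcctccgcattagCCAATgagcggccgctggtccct

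The Cacna1e and Cacna2d3 windows held none of the 4 motifs, Ryr1 held CCAAT 66 bases and Cacng7 CCAAT 23 bases before the start, and Orai2 held CACGTG at 84 and at 51 bases before it. Over the 46 windows of the 34 genes, CCAAT was found in 14 (30.4%), against 33.8% of the 32851 windows of all genes. TATAAA was found in 1 window, against 12.4% of all windows, CACGTG in 2, against 6.02%, and TGACGTCA in 0, against 1.55%. A match describes these letters alone.

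In R6/2 mice with Delta, most of these genes were lower than in NCAR mice with Delta, in astrocyte and neuron pulldowns alike. By edgeR's quasi-likelihood test at an adjusted p under 0.05, 25 of the 41 fell and 0 rose in the MG astrocyte IP, where 16.2% of all genes fell and 17.4% rose. In the hSyn neuron IP 26 fell and 5 rose, against 25.5% and 25.4% of all genes. In the n_ZFP_a_Rpl astrocyte IP 30 fell and 2 rose, against 24.7% and 20.6%. In the n_ZFP_n_Rpl neuron IP 27 fell and 4 rose, against 26.2% and 25.2%. The median log2 change of the 41 was -0.61, -0.38, -0.65 and -0.43 in the same order, while the median of all genes tested was 0.035 in the MG IP and within 0.1 of 0 in each of the others. The MG count of 0 risers compares with 2 at an unadjusted p under 0.05, and DESeq2 called 2 further genes there, Cacna1g and Stim2, both lower.

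**Figure D1:**
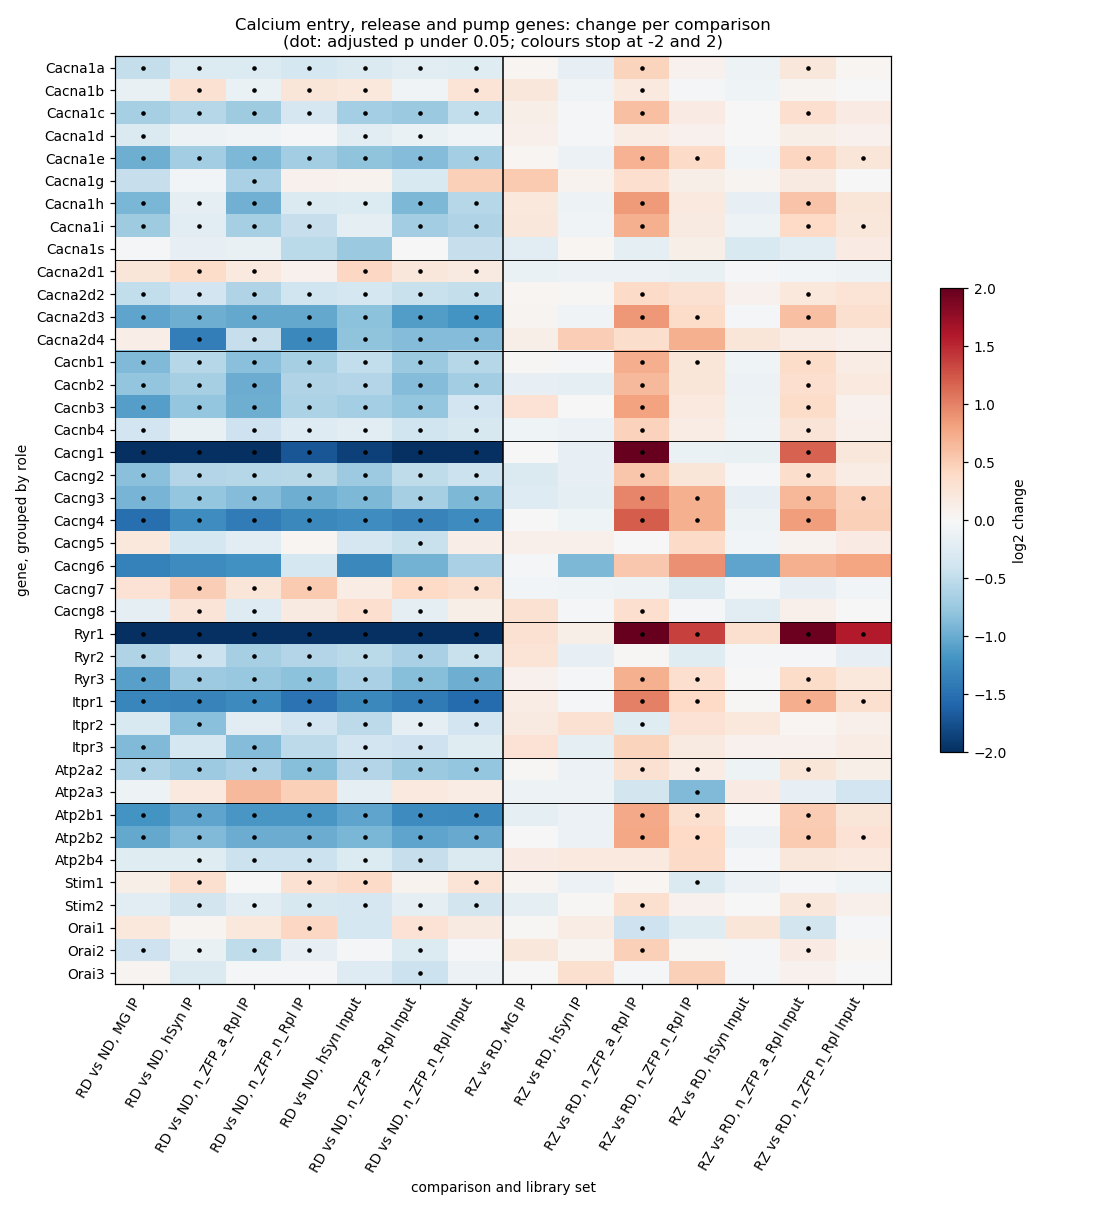
Log2 change of each gene (rows, grouped by role) in each comparison and library set (columns); blue is lower and red higher, colours stop at -2 and 2, and a dot marks an adjusted p under 0.05. The columns of R6/2 against NCAR are mostly blue with Ryr1 at the end of the scale, and the columns of ZFP against Delta in R6/2 mice are red in the n_ZFP_a_Rpl set (25 of 41 higher) and near white in the MG and hSyn sets (0 called).

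Of the 41, 22 fell in all 4 pulldowns, which 11.2% of all genes tested in the 4 did (1656 of 14728), and 0 rose in all 4, which 8.83% of all genes did. All 3 ryanodine receptors fell in all 4, as did 3 of 4 beta subunits, 2 of 4 alpha2delta subunits and 4 of 8 gamma subunits. So did 2 of 3 plasma membrane pumps, 1 of 3 IP3 receptors and 1 of 5 genes of store-operated entry. Of the 10 pore-forming subunits, with Cacna1f not tested, 5 fell in all 4. Of the 3 SERCA pumps, with Atp2a1 not tested, 1 did. The Inputs gave 27 lower and 4 higher in the hSyn set (21.6% and 22.5% of all genes), 32 and 3 in the n_ZFP_a_Rpl set (24.7% and 24.4%) and 25 and 4 in the n_ZFP_n_Rpl set (23.7% and 26.1%). 20 of the 22 fell in all 3 Inputs as well. 5 of the 43 were called in no pulldown or Input: Cacna1s, Cacng6 and Atp2a3, and the untested Cacna1f and Atp2a1. The matching shares of all genes for these counts are not given here.

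Markers of the striatal projection neurons moved with these genes. 13 of their 14 markers tested fell in each of the 4 pulldowns, and their summed level in the MG astrocyte IP went from 10585 to 11094 CPM in ND to 2917 to 4070 CPM in RD. In the hSyn neuron IP it went from 16907 to 19542 CPM to 6553 to 6583 CPM. Of 12 astrocyte markers, 1, 12, 5 and 9 were called lower in the MG, hSyn, n_ZFP_a_Rpl and n_ZFP_n_Rpl IPs. The 1 of 12 in the MG IP is under the share of all genes that fell there. The summed astrocyte level in the MG IP was 20545 to 25889 CPM in ND and 12580 to 17633 CPM in RD. RD sums lay below ND sums in the other pulldowns too. The part of these shifts in the changes of the calcium genes was not tested, and in bulk RNA fewer cells of a type and less RNA per cell cannot be told apart. Reads of Rn45s, the ribosomal RNA precursor, moved as well in the MG IP, where they made up 0.105% to 0.314% of the counts of ND libraries against 0.0409% to 0.0661% for RD. The n_ZFP_n_Rpl IP had the opposite order, with 0.00933% to 0.0130% for ND against 0.0138% to 0.0179% for RD, and the groups overlapped in the other pulldowns. Its part was not tested.

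Among the pore-forming subunits, Cacna1e (chr1:154390806-154884785), which encodes the R-type channel, had the largest mean absolute log2 change over the 4 pulldowns (0.81), though in the n_ZFP_a_Rpl IP that of Cacna1h was larger (-0.96 against -0.90). Cacna1e stood at 716, 699, 761 and 606 CPM in the ND libraries of the MG astrocyte IP and at 284, 388, 333 and 409.97 CPM in RD. In the n_ZFP_a_Rpl astrocyte IP it stood at 879, 943, 752 and 839.9 CPM in ND and at 484, 413 and 475 CPM in RD. Every RD library lay below every ND library of its set in both. The hSyn neuron IP held 672, 763, 741, 806 and 717 CPM in ND and 509, 461 and 408 CPM in RD. The n_ZFP_n_Rpl neuron IP held 880.2, 906, 777 and 821 CPM in ND and 559.8, 527, 517 and 484 CPM in RD, again without overlap. The log2 changes were -0.97 (SE 0.12, adjusted p = 2.59e-05) in the MG IP, -0.69 (SE 0.078, adjusted p = 1.68e-06) in the hSyn IP, -0.90 in the n_ZFP_a_Rpl IP and -0.70 in the n_ZFP_n_Rpl IP, with adjusted p of 4.09e-07 and 3.95e-07 in the last pair.

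Cacna1c, the L-type channel of most brain neurons, fell by 0.67, 0.57, 0.71 and 0.34 on the log2 scale in the MG, hSyn, n_ZFP_a_Rpl and n_ZFP_n_Rpl IPs. Cacna1a, the P/Q-type channel of fast transmitter release, fell in all 4 as well, by 0.48, 0.27, 0.27 and 0.35, though in the hSyn IP the call was lost without RD replicate 3 (log2 change -0.18). The T-type genes Cacna1h and Cacna1i, whose channels open near rest, fell in all 4, and more in the astrocyte pulldowns than in the neuron pulldowns. Cacna1h stood at 175, 179, 163 and 171 CPM in ND and 88.6, 88.5 and 88.2 CPM in RD in the n_ZFP_a_Rpl astrocyte IP, but at 131, 133, 146, 125 and 141 CPM in ND and 120.01, 122 and 113 CPM in RD in the hSyn neuron IP. RD lay below ND in both, narrowly in the second. The log2 changes of Cacna1h were -0.91, -0.19, -0.96 and -0.29 in the order above, and those of Cacna1i -0.71, -0.21, -0.66 and -0.45. Leaving out 1 library ended the hSyn call of Cacna1h (ND replicates 2 and 4 and RD replicates 1 and 3; -0.22 to -0.16), its n_ZFP_n_Rpl call (ND replicates 2, 3 and 4, NZ replicate 4, RD replicates 1, 2 and 3 and RZ replicate 2; -0.38 to -0.24) and the hSyn call of Cacna1i (RD replicates 2 and 3; -0.28 to -0.16). The difference between the mean change in the neuron and in the astrocyte pulldowns was 0.70 for Cacna1h (SE 0.083, adjusted p = 1.26e-06) and 0.36 for Cacna1i (SE 0.08, adjusted p = 0.00203).

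Cacna1b, the N-type channel of transmitter release, was called in opposite directions. It rose in the hSyn neuron IP, from 111, 116, 119, 109.7 and 124 CPM in ND to 158, 141 and 129.7 CPM in RD, a log2 change of 0.30 (SE 0.063, adjusted p = 0.000753). It rose by 0.25 in the n_ZFP_n_Rpl neuron IP and was lower in the n_ZFP_a_Rpl astrocyte IP (-0.13), where ND held 185, 199.9, 178 and 190.1 CPM and RD 177, 169 and 169 CPM. The call in the n_ZFP_n_Rpl IP was lost without ND replicates 3 and 4 and RD replicates 1 and 2, each left out alone (log2 change 0.17 to 0.30), and that in the n_ZFP_a_Rpl IP without ND replicates 2 and 4, RD replicates 2 and 3 and RZ replicate 2 (-0.16 to -0.10). The difference between neuron and astrocyte pulldowns was 0.41 (SE 0.08, adjusted p = 0.000476). The L-type gene Cacna1d passed the test in the MG IP alone of the 4 (-0.29, and not without ND replicate 2, ND replicate 3 or RD replicate 3, with log2 changes of -0.36 to -0.24 over all leave-one-out fits), and the T-type gene Cacna1g in the n_ZFP_a_Rpl IP alone (-0.65 (SE 0.13, adjusted p = 0.00103)), both lower. The muscle channel gene Cacna1s had log2 changes of -0.031, -0.17, -0.15 and -0.53, none past the test.

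Of the alpha2delta subunits, Cacna2d3 (chr14:28904943-29722775) fell to about the same degree in every pulldown. Its ND libraries held 428, 427, 442 and 403 CPM in the MG IP and its RD libraries 184, 219, 193 and 222 CPM. The hSyn IP held 432, 484, 528, 529 and 493 CPM in ND and 259, 258 and 234 CPM in RD. No RD library reached an ND library in either. In the n_ZFP_a_Rpl IP the values were 422, 433, 385 and 407 CPM in ND and 236, 178 and 193 CPM in RD. In the n_ZFP_n_Rpl IP they were 344, 361, 443 and 408 CPM in ND and 175, 166, 225 and 195 CPM in RD, also apart. The log2 changes were -1.06 (SE 0.085, adjusted p = 3.56e-07) in the MG IP and -0.98, -1.02 and -1.03 in the other IPs, with adjusted p of 4.66e-08, 5.24e-07 and 3.65e-06. Cacna2d2 fell in all 4 too (-0.49, -0.38, -0.60 and -0.39). Cacna2d1, which encodes the main target of gabapentin, went the other way: it rose in the hSyn IP, from 314, 316, 337, 319 and 309 CPM to 421, 438 and 375 CPM (0.37 (SE 0.064, adjusted p = 0.000138)), and by 0.19 in the n_ZFP_a_Rpl IP.

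Cacna2d4, a subunit best known from the retina, fell in the hSyn, n_ZFP_a_Rpl and n_ZFP_n_Rpl IPs, and more in the neuron pulldowns. The hSyn neuron IP held 3.79, 2.88, 2.96, 4.101 and 2.83 CPM in ND and 1.02, 1.46 and 1.32 CPM in RD. The n_ZFP_n_Rpl neuron IP held 3.48, 2.41, 3.13 and 3.43 CPM in ND and 1.31, 0.846, 0.931 and 1.98 CPM in RD, while the MG astrocyte IP held 1.47, 2.04, 1.99 and 2.93 CPM in ND and 3.63, 1.19, 2.01 and 2.42 CPM in RD. The groups stood apart in the neuron pulldowns and overlapped in the MG IP. The log2 changes were 0.14, -1.38, -0.45 and -1.29 in the MG, hSyn, n_ZFP_a_Rpl and n_ZFP_n_Rpl IPs, and the neuron minus astrocyte difference was -1.17 (SE 0.27, adjusted p = 0.00226).

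The beta subunit genes fell together: Cacnb1, Cacnb2 and Cacnb3 in all 4 pulldowns and Cacnb4 in 3. Cacnb3 (chr15:98628436-98644536) had the largest mean absolute change of the 4. It held 102, 111, 107 and 106 CPM in ND and 48.2, 52.96, 44.7 and 51.99 CPM in RD in the MG IP. The hSyn IP held 147, 149.5, 149.8, 148 and 146 CPM in ND and 82.8, 91.2 and 85.6 CPM in RD. RD lay far below ND in both. The n_ZFP_a_Rpl IP held 109, 104, 102 and 99.1 CPM in ND and 52.9, 49.7 and 56.3 CPM in RD. The n_ZFP_n_Rpl IP held 215, 234, 182 and 203 CPM in ND and 144, 147, 124 and 121 CPM in RD, with no overlap and a smaller gap. The log2 changes of Cacnb3 were -1.11 (SE 0.062, adjusted p = 1.41e-08) in the MG IP and -0.78, -0.97 and -0.64 in the other IPs (adjusted p 1.04e-07, 3.93e-09 and 1.52e-05), and the fall was larger in the astrocyte pulldowns (neuron minus astrocyte 0.34, SE 0.07, adjusted p = 0.00107). Cacnb1 fell by 0.88, 0.57, 0.83 and 0.67, and Cacnb2 by 0.78, 0.66, 0.99 and 0.61.

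Cacnb4, the beta subunit whose loss causes epilepsy and ataxia in mice, fell less. It held 335, 329, 339 and 322 CPM in ND and 237, 256, 223 and 298 CPM in RD in the MG IP, and 364, 380.3, 332 and 368 CPM in ND and 294, 245 and 274 CPM in RD in the n_ZFP_a_Rpl IP. In the hSyn IP, 519, 538, 661, 592 and 536 CPM in ND overlapped with 544, 507 and 490.1 CPM in RD, and in the n_ZFP_n_Rpl IP 714, 497, 564 and 538 CPM in ND overlapped with 476, 519, 489.6 and 442 CPM in RD. The log2 changes were -0.39, -0.15, -0.41 and -0.26 in the order MG, hSyn, n_ZFP_a_Rpl and n_ZFP_n_Rpl. All but the hSyn value passed the test, and the last was lost without RD replicate 4 (-0.22) and stood at -0.15 without ND replicate 1.

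The gamma family held genes that fell and genes that rose. Cacng2, Cacng3 and Cacng4 encode TARPs, auxiliary subunits of AMPA-type glutamate receptors, and fell in all 4 pulldowns, Cacng4 by 1.51, 1.23, 1.40 and 1.29 on the log2 scale. Cacng3 stood at 30.7, 29.9, 36.3 and 36.5 CPM in ND and 15.9, 19.8, 15.7 and 18.9 CPM in RD in the MG IP, and at 64.3, 94.4, 81.3, 94.9 and 72.9 CPM in ND and 49.8, 47.1 and 46.4 CPM in RD in the hSyn IP. It stood at 27.8, 32.7, 26.2 and 28.1 CPM in ND and 18.5, 13.4 and 15.1 CPM in RD in the n_ZFP_a_Rpl IP, and at 64.3, 63.5, 53.2 and 61.9 CPM in ND and 33.9, 29.3, 32.4 and 28.4 CPM in RD in the n_ZFP_n_Rpl IP. The groups were apart in all 4, with log2 changes of -0.93, -0.77, -0.87 and -0.97. Cacng1 (chr11:107703218-107716476), the gamma subunit of skeletal muscle channels, fell steeply from a low level. The n_ZFP_a_Rpl IP held 35, 37, 50 and 40 counts in ND and 5, 1 and 4 in RD, so the log2 change of -3.65 (SE 0.42, adjusted p = 4.31e-06) rests on few reads. In the MG, hSyn and n_ZFP_n_Rpl IPs the changes of Cacng1 were -2.30, -2.02 and -1.71.

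Cacng7 (chr7:3332027-3368221), a TARP of the second type, rose. It stood at 17.01, 16.2, 14.9, 16.9 and 15.4 CPM in ND and 23.9, 21.8 and 22.2 CPM in RD in the hSyn IP, and at 18.3, 19.2, 14.1 and 14.7 CPM in ND and 24.5, 26.1, 20.3 and 24.7 CPM in RD in the n_ZFP_n_Rpl IP. Every RD library lay above every ND library in both. In the n_ZFP_a_Rpl IP it stood at 9.94, 8.66, 9.38 and 8.66 CPM in ND and 10.004, 11.5 and 10.9 CPM in RD, and in the MG IP at 8.68, 7.71, 7.34 and 8.86 CPM in ND and 11.1, 10.03, 9.36 and 9.53 CPM in RD, also without overlap. The changes on the log2 scale were 0.30 (adjusted p = 0.0533), 0.49 (9.09e-05), 0.24 (0.0186) and 0.53 (0.00137) in the MG, hSyn, n_ZFP_a_Rpl and n_ZFP_n_Rpl IPs, and the third was lost without ND replicate 2, RD replicate 2 or RD replicate 3 (log2 change 0.19 to 0.29 over the leave-one-out fits). Its genomic neighbour Cacng8, another TARP, rose in the hSyn IP (0.25 (SE 0.07, adjusted p = 0.00579)) and fell in the n_ZFP_a_Rpl IP (-0.26 (SE 0.066, adjusted p = 0.00444)), with a neuron minus astrocyte difference of 0.44 (SE 0.075, adjusted p = 0.000131). Cacng5 and Cacng6 passed the test in no pulldown.

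The ryanodine receptor gene Ryr1 (chr7:29003340-29125179), the release channel of skeletal muscle that is also found in brain neurons, had the largest fall of the 41 in every pulldown but the n_ZFP_a_Rpl IP, where Cacng1 had the larger fitted change. Ryr1 stood at 46.3, 51.7, 54.8 and 56.2 CPM in ND and 3.403, 4.55, 3.12 and 4.75 CPM in RD in the MG IP. It stood at 36.6, 53.7, 53.1, 49.3 and 48.2 CPM in ND and 4.84, 5.08 and 4.098 CPM in RD in the hSyn IP. RD was several times below ND in every library of both. The n_ZFP_a_Rpl IP held 57.9, 49.8, 39.98 and 42.9 CPM in ND and 5.403, 3.24 and 4.24 CPM in RD. The n_ZFP_n_Rpl IP held 35.3, 45.3, 52.2 and 46.1 CPM in ND and 4.59, 4.62, 4.79 and 4.53 CPM in RD, the same picture. RD levels were 7.55%, 9.71%, 9.02% and 10.4% of ND in the order MG, hSyn, n_ZFP_a_Rpl and n_ZFP_n_Rpl, from log2 changes of -3.73 (SE 0.15, adjusted p = 6.26e-10), -3.36, -3.47 and -3.27.

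In the tissue Inputs, Ryr1 fell from 65.3, 95.1, 115, 97.99 and 89.3 CPM to 7.32, 6.93 and 5.74 CPM in the hSyn set and from 124, 111, 119.9 and 115 CPM to 8.45, 6.997 and 8.03 CPM in the n_ZFP_a_Rpl set. In the n_ZFP_n_Rpl set it fell from 73.1, 109, 159 and 121 CPM to 6.79, 7.71, 5.51 and 6.498 CPM. These are log2 changes of -3.80, -3.91 and -4.11, each larger than in the pulldown of the same set. The difference between pulldown and Input was 0.49 (SE 0.32), 0.48 (SE 0.25) and 0.79 (SE 0.38), with adjusted p of 0.699, 0.421 and 0.259. With the replicate number as a block, which pairs the pulldown and Input of 1 number, it passed in edgeR in the hSyn set (0.53, adjusted p = 0.00524), where 11 of 14 such pairs deviated together, and in the n_ZFP_n_Rpl set (0.77, adjusted p = 0.000386), where all 16 did. The level was lower in the pulldown than in the Input of all 3 sets (-0.56, -0.76 and -0.71). In the n_ZFP_a_Rpl IP, 11 skeletal muscle markers summed to 4.12 to 5.45 CPM in ND and 3.40 to 3.42 CPM in RD. In the n_ZFP_n_Rpl IP they summed to 11.6 to 15.9 CPM in ND and 4.96 to 7.003 CPM in RD. The hSyn IP held 7.41 to 8.67 CPM in ND and 4.45 to 6.04 CPM in RD, also apart. The groups overlapped in the MG IP, at 3.22 to 4.87 CPM in ND and 2.82 to 3.48 CPM in RD. RD sums lay below ND sums in the Inputs of all 3 sets. The part of these marker shifts in the Ryr1 changes was not tested.

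**Figure D2:**
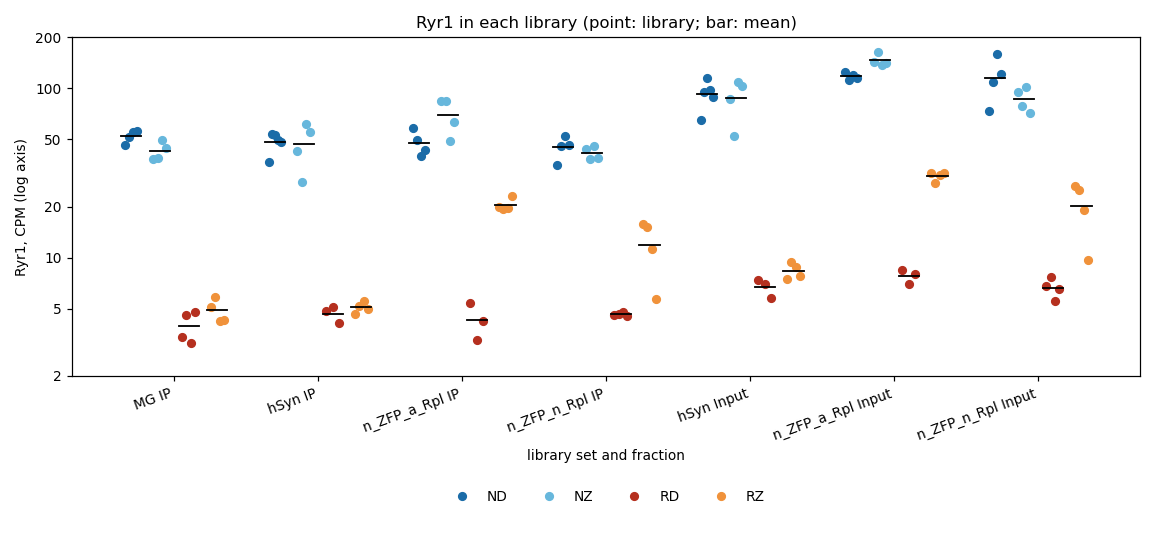
Ryr1 level in CPM on a log axis in each library (points, with a bar at the mean) by library set and fraction and by condition. RD libraries sit far below the ND libraries in every set, and RZ libraries lie well above them in the n_ZFP_a_Rpl set, above them in the n_ZFP_n_Rpl set with 1 close by, and near them in the MG and hSyn sets.

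Ryr3, the isoform of low abundance in most tissues, fell by 1.09, 0.72, 0.76 and 0.82 in the MG, hSyn, n_ZFP_a_Rpl and n_ZFP_n_Rpl IPs. Ryr2 (chr13:11553099-12106945), the main isoform of heart and brain, fell least of the 3. It stood at 301, 281, 297 and 273 CPM in ND and 162, 216, 177 and 202 CPM in RD in the MG IP, and at 261, 296, 291, 289.7 and 268 CPM in ND and 223, 217 and 189 CPM in RD in the hSyn IP. It stood at 374, 378, 319 and 319 CPM in ND and 232, 215 and 208 CPM in RD in the n_ZFP_a_Rpl IP, and at 608, 482, 379 and 386 CPM in ND and 333, 349, 284 and 264 CPM in RD in the n_ZFP_n_Rpl IP. ND and RD did not overlap in any of the 4. These gave log2 changes of -0.61 (SE 0.087, adjusted p = 6.77e-05), -0.42 (7.01e-05), -0.67 (2.76e-05) and -0.59 (0.00216).

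Itpr1 (chr6:108213083-108551116), the neuronal IP3 receptor, was read at high levels and fell to well under ND in every library. It stood at 2616, 2465, 2787 and 2529.97 CPM in ND and 940.1, 1066, 986 and 1225 CPM in RD in the MG IP, and at 3651, 4506, 3955, 4067 and 3979 CPM in ND and 1668, 1661 and 1449.9 CPM in RD in the hSyn IP. RD was 40.6% and 39.5% of ND. In the n_ZFP_a_Rpl IP it stood at 2913, 2862, 2427 and 2543 CPM in ND and 1246, 941 and 1155 CPM in RD, and in the n_ZFP_n_Rpl IP at 4308, 4094, 4481 and 4431 CPM in ND and 1566, 1685, 1554 and 1426 CPM in RD. RD was 41.5% and 36.0% of ND. The changes on the log2 scale were -1.30 (SE 0.15, adjusted p = 9e-06), -1.34, -1.27 and -1.47 (SE 0.076, adjusted p = 2.88e-09), and -1.28, -1.41 and -1.53 in the hSyn, n_ZFP_a_Rpl and n_ZFP_n_Rpl Inputs.

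Itpr2, the astrocytic IP3 receptor, did not pass the test in either astrocyte pulldown. It stood at 81.2, 113, 124 and 101 CPM in ND and 88.3, 95.1, 78.9 and 74.98 CPM in RD in the MG IP (-0.31 (SE 0.26, adjusted p = 0.378)), and at 84.4, 89.3, 82.5 and 97.8 CPM in ND and 83.3, 67.05 and 79.4 CPM in RD in the n_ZFP_a_Rpl IP (-0.21 (SE 0.09, adjusted p = 0.0724)). The groups overlapped in both. It fell in the hSyn neuron IP, from 32.6, 28.6, 24.6, 35.7 and 31.2 CPM to 19.2, 16.01 and 16.1 CPM (-0.84 (SE 0.16, adjusted p = 0.000515)), where 12 of 12 astrocyte markers fell as well, with sums of 5718 to 8207 CPM in ND and 2639 to 3244 CPM in RD. In the n_ZFP_n_Rpl neuron IP it fell by 0.39, a call lost without ND replicate 4, RD replicate 1 or RD replicate 2 (-0.47 to -0.27 over the leave-one-out fits), beside 9 of 12 astrocyte markers. The part of astrocyte RNA in these falls was not tested. Itpr3, at 0.502 to 2.30 CPM in the ND and RD pulldowns, fell in the astrocyte pulldowns (-0.88 and -0.87), the second not without ND replicates 2 and 4 and RD replicates 2 and 3 (-1.11 to -0.75).

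The SERCA pump gene Atp2a2 (chr5:122453513-122502225), the housekeeping pump of the endoplasmic reticulum, fell evenly. It stood at 1642, 1625, 1703 and 1621 CPM in ND and 1015, 1110.5, 1046 and 1102 CPM in RD in the MG IP, and at 1668, 1909.8, 1835, 1888 and 1684 CPM in ND and 1123, 1099 and 1025 CPM in RD in the hSyn IP. It stood at 1716, 1734, 1612 and 1552 CPM in ND and 1093, 1023 and 1033 CPM in RD in the n_ZFP_a_Rpl IP, and at 2003, 1743, 1829.98 and 1872 CPM in ND and 1038, 1065, 1024 and 983 CPM in RD in the n_ZFP_n_Rpl IP. The replicates were tight and the groups apart, with log2 changes of -0.62 (SE 0.06, adjusted p = 1.79e-06), -0.73, -0.66 and -0.86 (SE 0.047, adjusted p = 5.01e-09). Atp2a3, a pump of blood and endothelial cells, was at 0.968 to 4.30 CPM in the ND and RD pulldowns and passed the test in none.

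The plasma membrane pump gene Atp2b1 (chr10:98914630-99026143), the most widely expressed of its family, fell strongly. It stood at 3327, 3389, 3473 and 3197 CPM in ND and 1204, 1484, 1374 and 1776 CPM in RD in the MG IP, and at 3321, 3905, 4308, 4133 and 3713 CPM in ND and 1890.5, 1910.4 and 1789 CPM in RD in the hSyn IP. It stood at 2181, 2253, 1999 and 2055 CPM in ND and 1089, 804 and 937 CPM in RD in the n_ZFP_a_Rpl IP, and at 2526, 2300.2, 2685 and 2584 CPM in ND and 1126, 1176, 1170.4 and 1055 CPM in RD in the n_ZFP_n_Rpl IP. No RD library reached the ND range. These gave log2 changes of -1.20 (SE 0.13, adjusted p = 5.71e-06), -1.06, -1.17 and -1.16 (SE 0.071, adjusted p = 1.02e-08). Atp2b2, the fast pump of neurons, fell by 1.02, 0.88, 0.99 and 1.00 in the same order. Atp2b4 fell in the hSyn, n_ZFP_a_Rpl and n_ZFP_n_Rpl IPs (-0.24, -0.43 and -0.43). These 3 calls were each lost without some library: the first without RD replicate 3 (log2 change -0.22), the second without RD replicate 1 (-0.38, and -0.28 without ND replicate 4), and the third without ND replicates 1, 2 and 4, RD replicates 2, 3 and 4 and RZ replicates 3 and 4 (-0.58 to -0.30).

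The 5 genes of store-operated entry had median log2 changes of 0.052, -0.15, -0.038 and -0.016 in the MG, hSyn, n_ZFP_a_Rpl and n_ZFP_n_Rpl IPs. Orai2 (chr5:136147456-136170697), the ORAI channel gene most expressed in brain, fell in all 4 pulldowns. It stood at 47.1, 44.7, 44.5 and 51.6 CPM in ND and 32.2, 32.5 and 34.1 CPM in RD in the n_ZFP_a_Rpl astrocyte IP, and at 43.2, 41.04, 37.2 and 35.8 CPM in ND and 26.2, 29.4, 25.7 and 36.5 CPM in RD in the MG astrocyte IP. The groups were apart in the first and overlapped in the second. In the hSyn neuron IP it stood at 73.1, 66.6, 73.96, 68.9 and 74.5 CPM in ND and 63.6, 70.2 and 59.5 CPM in RD, and in the n_ZFP_n_Rpl neuron IP at 83.3, 81.4, 81.9 and 90.3 CPM in ND and 77.1, 73.5, 72.9 and 78.5 CPM in RD, with overlap in the first and none in the second. The changes on the log2 scale were -0.42, -0.15, -0.51 and -0.16 in the order MG, hSyn, n_ZFP_a_Rpl and n_ZFP_n_Rpl, with adjusted p of 0.0382, 0.0373, 1.48e-05 and 0.012. The MG call was lost without any 1 of ND replicates 1 to 3 or RD replicates 1 to 3 (-0.54 to -0.37), and the hSyn call without ND replicates 0, 2 and 4 and RD replicates 1 and 3, at -0.094 without the last. The fall was larger in the astrocyte pulldowns (neuron minus astrocyte 0.32, SE 0.083, adjusted p = 0.00685), and the hSyn and n_ZFP_n_Rpl Inputs gave -0.017 and -0.044, neither past the test.

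The 2 STIM sensors parted. Stim2, the sensor of small store losses, stood at 184, 204, 188, 193 and 186 CPM in ND and 142, 148 and 156 CPM in RD in the hSyn IP, and at 149, 141, 147 and 139 CPM in ND and 112, 125, 114 and 113 CPM in RD in the n_ZFP_n_Rpl IP, falling in both without overlap. In the n_ZFP_a_Rpl IP it stood at 89.9, 85.6, 84.2 and 92.7 CPM in ND and 79.7, 69.3 and 77.3 CPM in RD, and in the MG IP at 118, 116, 105 and 111 CPM in ND and 85.01, 101, 87.6 and 111 CPM in RD. Its log2 changes were -0.23, -0.36, -0.22 and -0.32, all past the test but the MG value (adjusted p = 0.0801). Stim1 rose in the neuron pulldowns, from 134, 145, 133, 133 and 136 CPM to 178, 179.98 and 151 CPM in the hSyn IP (0.31 (SE 0.058, adjusted p = 0.000256)) and from 129, 135, 146 and 149.9 CPM to 167, 168, 181 and 173 CPM in the n_ZFP_n_Rpl IP (0.30 (SE 0.047, adjusted p = 7.38e-05)). In the astrocyte pulldowns its changes were 0.12 and -0.01, not past the test, and the difference was 0.26 (SE 0.063, adjusted p = 0.00431). Orai1, the channel first tied to immune cells, rose in the n_ZFP_n_Rpl IP (0.41), a call lost without ND replicates 1, 2 and 3 and RD replicates 1, 3 and 4 (0.32 to 0.48), and Orai3 passed the test in no pulldown.

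**Figure D3:**
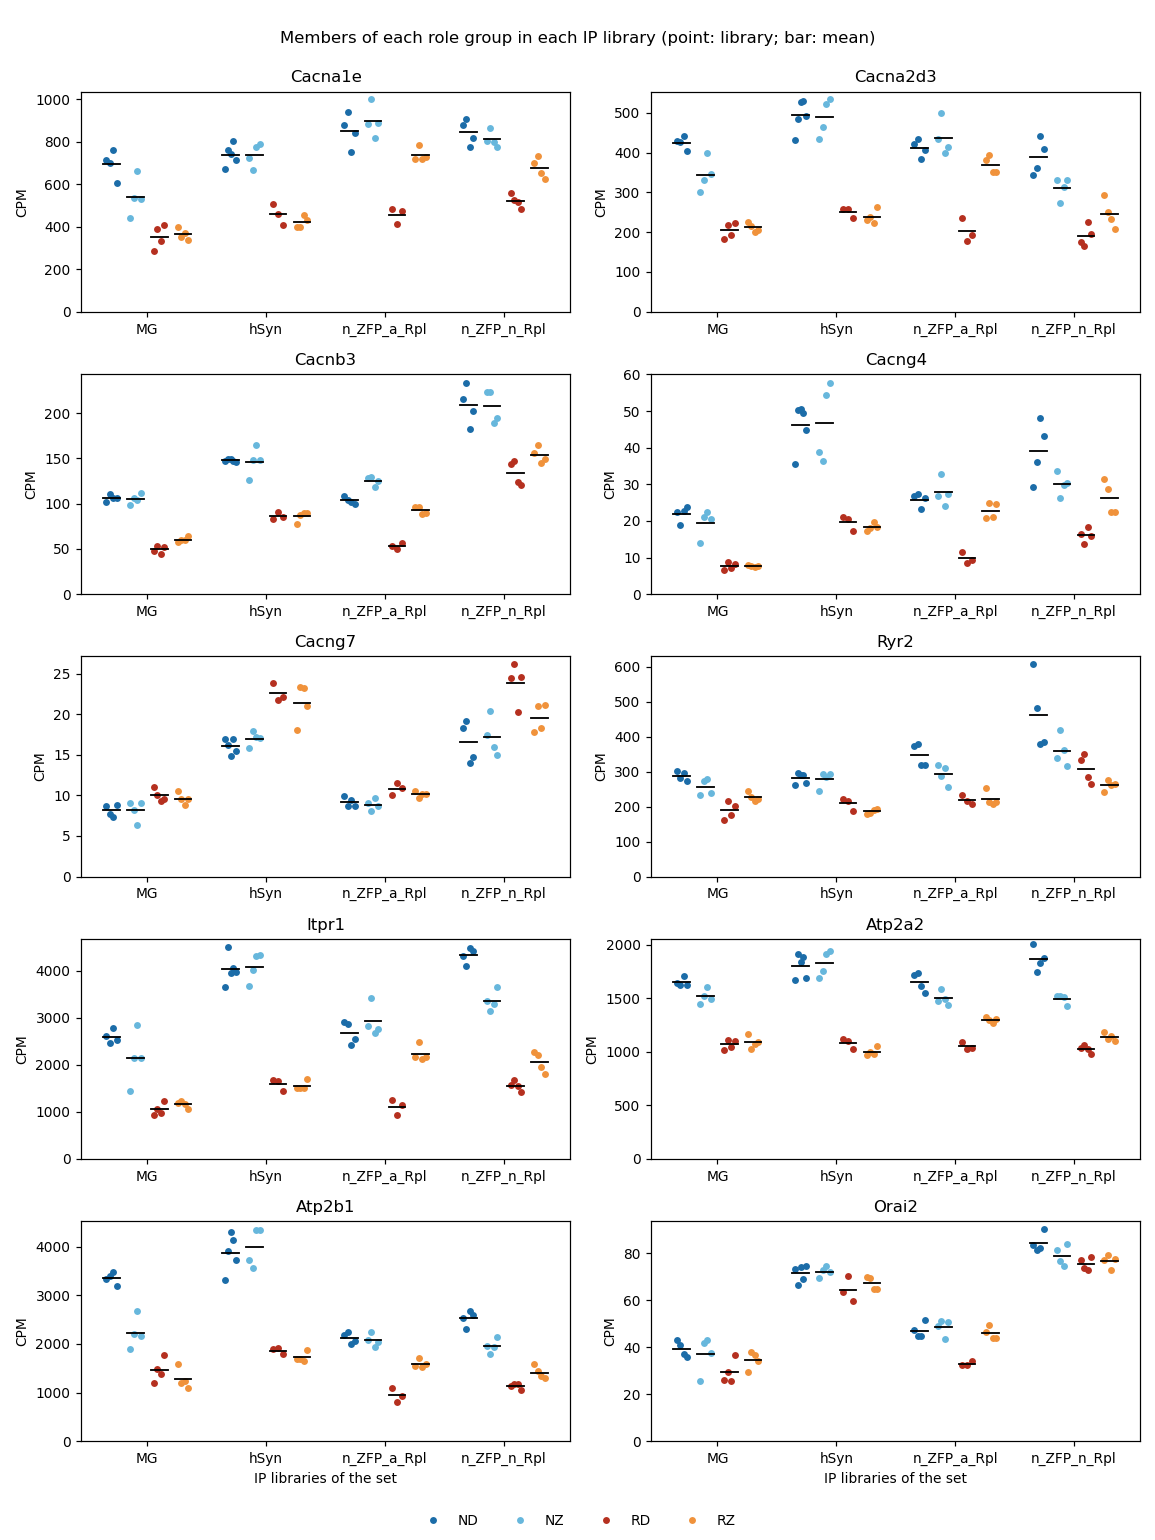
CPM of a member or pair of members of each role group in every IP library (points, with a bar at the mean), by set and condition, on axes that start at 0. Itpr1, Atp2b1 and Cacna2d3 show the RD points well under the ND points in every set, and in the n_ZFP_a_Rpl set the RZ points lie above the RD points.

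Whether the change in a pulldown differed from that in its tissue was tested within each set. In the hSyn and n_ZFP_n_Rpl sets 0 of 41 genes passed (0.869% and 1.2% of all genes passed higher, 0.141% and 2.48% lower), with 1 and 4 at an unadjusted p under 0.05 in edgeR, and 0 by DESeq2 in both. In the n_ZFP_a_Rpl set Orai3 alone passed (0.42, SE 0.098, adjusted p = 0.0184, against 1.35% of all genes higher), and it did not without RD replicate 3 of the IP or of the Input (0.38 to 0.47 over the leave-one-out fits). These shares of all genes come from fits without a block, and those of the blocked fits are not given here. With pulldown and Input of 1 replicate number kept as a block, 2 genes passed in the hSyn set, Ryr1 (0.53) and Cacng7 (0.42), 2 in the n_ZFP_a_Rpl set, Orai3 (0.42) and Cacna1g (-0.32), and 12 in the n_ZFP_n_Rpl set. Among those 12, Ryr1 (0.77), Cacna1h (0.22) and Cacna1c (0.099) fell less in the pulldown than in the tissue, and 9 had a lower value in the pulldown, from Cacna1g (-0.48) and Cacnb3 (-0.30) to Atp2a2 (-0.13). Between neuron and astrocyte pulldowns, 11 genes differed in their R6/2 change, 10 with a higher value in neurons and 1, Cacna2d4, with a lower one, against 11.5% and 9.77% of all genes. Of these, Cacna1c (0.24) and Cacng1 (1.11) lost the call when 1 library was left out, the first for MG IP RD replicates 1 and 3, hSyn IP RD replicates 1 and 2, n_ZFP_a_Rpl IP ND replicates 1 and 2, n_ZFP_a_Rpl IP RD replicate 2, n_ZFP_n_Rpl IP ND replicate 1 and n_ZFP_n_Rpl IP RD replicate 1 (0.20 to 0.27) and the second for MG IP ND replicate 1, MG IP RD replicates 2 and 4, hSyn IP RD replicates 1 and 3, n_ZFP_a_Rpl IP ND replicate 3, n_ZFP_a_Rpl IP RD replicate 2 and n_ZFP_n_Rpl IP RD replicates 1 and 4 (0.90 to 1.31).

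With the ZFP in R6/2 mice, most of the calcium genes rose in the n_ZFP_a_Rpl pulldown and a smaller number in the n_ZFP_n_Rpl pulldown. In the n_ZFP_a_Rpl astrocyte IP, 25 of 41 were higher in RZ than in RD and 2 lower, where 19.1% of all genes were higher and 14.7% lower. In the n_ZFP_n_Rpl neuron IP 11 were higher and 2 lower, against 9.47% and 7.95%. The n_ZFP_a_Rpl Input gave 23 higher and 1 lower (11.1% and 5.03%), and the n_ZFP_n_Rpl Input 6 higher and 0 lower (2.49% and 0.828%), the 6 being 2 without RZ replicate 2 and 3 without RD replicate 4. In the MG and hSyn IPs and the hSyn Input 0 of 41 passed in edgeR, against 0.013% to 0.0652% of all genes in the MG IP, 0.00652% to 0.0326% in the hSyn IP and 0% in the Input. At an unadjusted p under 0.05 these counts were 6, 3 and 1, and DESeq2 called 1 (Cacnb3, in the MG IP), 0 and 0. The median log2 change was 0.45 in the n_ZFP_a_Rpl IP and 0.20 in the n_ZFP_n_Rpl IP, while that of all genes tested was within 0.01 of 0. Differences between the sets were not tested.

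Marker genes of neurons moved in the same libraries. In the n_ZFP_a_Rpl astrocyte IP 14 of 14 projection neuron markers and 6 of 10 pan-neuronal markers were higher in RZ than in RD and 11 of 12 astrocyte markers lower, and the projection neuron sum went from 2864 to 3833 CPM in RD to 7993 to 9186 CPM in RZ. In the n_ZFP_n_Rpl neuron IP 10 of 14 projection neuron markers were higher, and 2 of 12 astrocyte markers, with projection neuron sums of 3949 to 5133 CPM in RD and 5925 to 9463 CPM in RZ. In the MG IP, where no calcium gene passed, that sum was 2917 to 4070 CPM in RD and 2912 to 3635 CPM in RZ. The part of these marker shifts in the changes of the calcium genes was not tested.

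Ryr1 rose in both sets. For the n_ZFP_a_Rpl IP, 5.403, 3.24 and 4.24 CPM in RD compares with 19.9, 19.4, 19.6 and 23.1 CPM in RZ, a log2 change of 2.25 (SE 0.23, adjusted p = 6.62e-06). In the n_ZFP_n_Rpl IP, 4.59, 4.62, 4.79 and 4.53 CPM in RD compares with 15.7, 15.1, 11.2 and 5.703 CPM in RZ, a change of 1.36 (SE 0.23, adjusted p = 0.00143). All RZ libraries lay above all RD libraries, but RZ replicate 4 of the second set stayed close to them, and without it the change was 1.59. The Inputs gave 31.6, 27.7, 30.8 and 31.7 CPM in RZ in the n_ZFP_a_Rpl set and 26.6, 24.9, 19.2 and 9.72 CPM in the n_ZFP_n_Rpl set, where the RD libraries held 8.45, 6.997 and 8.03 CPM and 6.79, 7.71, 5.51 and 6.498 CPM. The log2 changes there were 1.96 and 1.59, and the latter did not pass without RZ replicate 2 (1.43 to 1.82 over the leave-one-out fits). Ryr1 in RZ remained below ND in both pulldowns, by -1.22 (SE 0.18, adjusted p = 0.000372) and -1.91 (SE 0.22, adjusted p = 2.3e-05). In the MG and hSyn IPs the RZ libraries held 5.1, 5.87, 4.24 and 4.27 CPM and 4.65, 5.17, 5.54 and 4.95 CPM, log2 changes against RD of 0.31 (SE 0.14) and 0.12 (SE 0.23).

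Within the n_ZFP_a_Rpl IP members of every role rose. Itpr1 went from 1246, 941 and 1155 CPM in RD to 2165, 2482, 2119.6 and 2171 CPM in RZ (1.00 (SE 0.11, adjusted p = 5.31e-06)), Cacna1e from 484, 413 and 475 CPM to 718, 786, 720.4 and 729 CPM (0.69 (SE 0.08, adjusted p = 1.01e-05)), and Atp2b1 from 1089, 804 and 937 CPM to 1548, 1717, 1521 and 1592 CPM (0.76 (SE 0.084, adjusted p = 7.41e-06)). RZ and RD did not overlap for any of the 3. Cacnb3 rose by 0.81 and all 4 beta subunits rose, Cacna2d3 rose by 0.86, Cacng4 by 1.22, and Cacng3, at 29.998, 31.3, 29.3 and 32.5 CPM in RZ, by 0.97. Orai2 went from 32.2, 32.5 and 34.1 CPM to 46.5, 49.2, 43.8 and 43.9 CPM (0.48 (SE 0.066, adjusted p = 5.14e-05)). Cacng1 rose from 5, 1 and 4 counts to 16, 17, 21 and 16 counts (2.30 (SE 0.45, adjusted p = 0.000917)). Orai1 (-0.42) and Itpr2 (-0.24) were lower in RZ, beside the 11 of 12 astrocyte markers that were lower. The Itpr2 call was lost without ND replicates 1, 2 and 3, NZ replicates 2 and 3, RD replicates 1 and 3 and RZ replicates 1, 2, 3 and 4 (-0.33 to -0.18).

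In the n_ZFP_n_Rpl IP the changes were smaller. Cacng3 rose from 33.9, 29.3, 32.4 and 28.4 CPM in RD to 51.8, 56.2, 48.5 and 45.5 CPM in RZ (0.70 (SE 0.086, adjusted p = 7.75e-05)) and Cacng4 by 0.70. Itpr1 rose from 1566, 1685, 1554 and 1426 CPM to 2282, 2206, 1945 and 1797 CPM (0.40 (SE 0.074, adjusted p = 0.00182)), Cacna1e from 559.8, 527, 517 and 484 CPM to 699, 733, 654 and 623 CPM (0.38 (SE 0.064, adjusted p = 0.00105)) and Atp2b1 from 1126, 1176, 1170.4 and 1055 CPM to 1579, 1443, 1331 and 1294 CPM (0.32 (SE 0.07, adjusted p = 0.00582)). All RZ libraries lay above all RD libraries for these. Atp2b2 (0.39), Cacna2d3 (0.37), Ryr3 (0.34), Cacnb1 (0.24) and Atp2a2 (0.15) complete the 11. Leaving out 1 library ended the calls of Cacna2d3 (RD replicates 1, 2 and 4 and RZ replicates 1, 2 and 3), Ryr3 (RD replicates 1, 2 and 4 and RZ replicates 1 and 2; 0.22 without RZ replicate 1) and Atp2a2 (NZ replicates 1 and 3, RD replicates 1, 3 and 4 and RZ replicates 1, 2 and 3). The same held for Atp2a3 (-0.89; RD replicates 1 and 4 and RZ replicates 2, 3 and 4), one of the pair that were lower. The other is Stim1, which went from 167, 168, 181 and 173 CPM to 142, 142, 141 and 137 CPM (-0.29 (SE 0.047, adjusted p = 0.000707)).

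Ryr2 was lower in R6/2 mice in every pulldown and passed the test of ZFP against Delta in none. RZ held 254, 213, 206 and 213 CPM in the n_ZFP_a_Rpl IP and 242, 275, 262 and 266 CPM in the n_ZFP_n_Rpl IP, where RD held 232, 215 and 208 CPM and 333, 349, 284 and 264 CPM. The groups overlapped in both, with log2 changes of 0.021 (SE 0.089, adjusted p = 0.88) and -0.24 (SE 0.14, adjusted p = 0.259). In the MG IP every RZ library, at 246, 226, 217 and 223 CPM, lay above every RD library, at 162, 216, 177 and 202 CPM (0.27 (SE 0.086, adjusted p = 0.175)), and in the hSyn IP the groups overlapped (-0.17 (SE 0.071, adjusted p = 0.676)). Against the ND libraries, RZ was lower in all 4 (-0.34, -0.59, -0.65 and -0.83 in the order MG, hSyn, n_ZFP_a_Rpl and n_ZFP_n_Rpl). Ryr1 and Ryr3, the other members of the family, rose with the ZFP in both n_ZFP sets, though a difference between Ryr2 and either of them was not tested.

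RZ was also set against ND. The comparison shares its ND libraries with RD against ND, so the 2 are given side by side only. For the n_ZFP_a_Rpl IP 11 of 41 were lower and 1, Cacna1a, higher in RZ than in ND (13.1% and 11.3% of all genes), where RD had 30 lower and 2 higher. In the n_ZFP_n_Rpl IP 21 were lower and 0 higher (16.5% and 14.7%), where RD had 27 and 4. In the MG IP 24 were lower and 1, Cacng5, higher (17.6% and 19.4%) and in the hSyn IP 27 and 5 (25.4% and 25.8%). For Itpr1 the log2 changes of RD and RZ against ND were -1.27 and -0.27 in the n_ZFP_a_Rpl IP, -1.47 and -1.07 in the n_ZFP_n_Rpl IP, and -1.34 and -1.37 in the hSyn IP. For Atp2a2 they were -0.66 and -0.35 in the n_ZFP_a_Rpl IP and -0.86 and -0.71 in the n_ZFP_n_Rpl IP. Cacna1a in the n_ZFP_a_Rpl IP went from -0.27 to 0.17, the latter lost without ND replicates 3 and 4 and RZ replicates 2 and 4 (0.14 to 0.20).

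**Figure D4:**
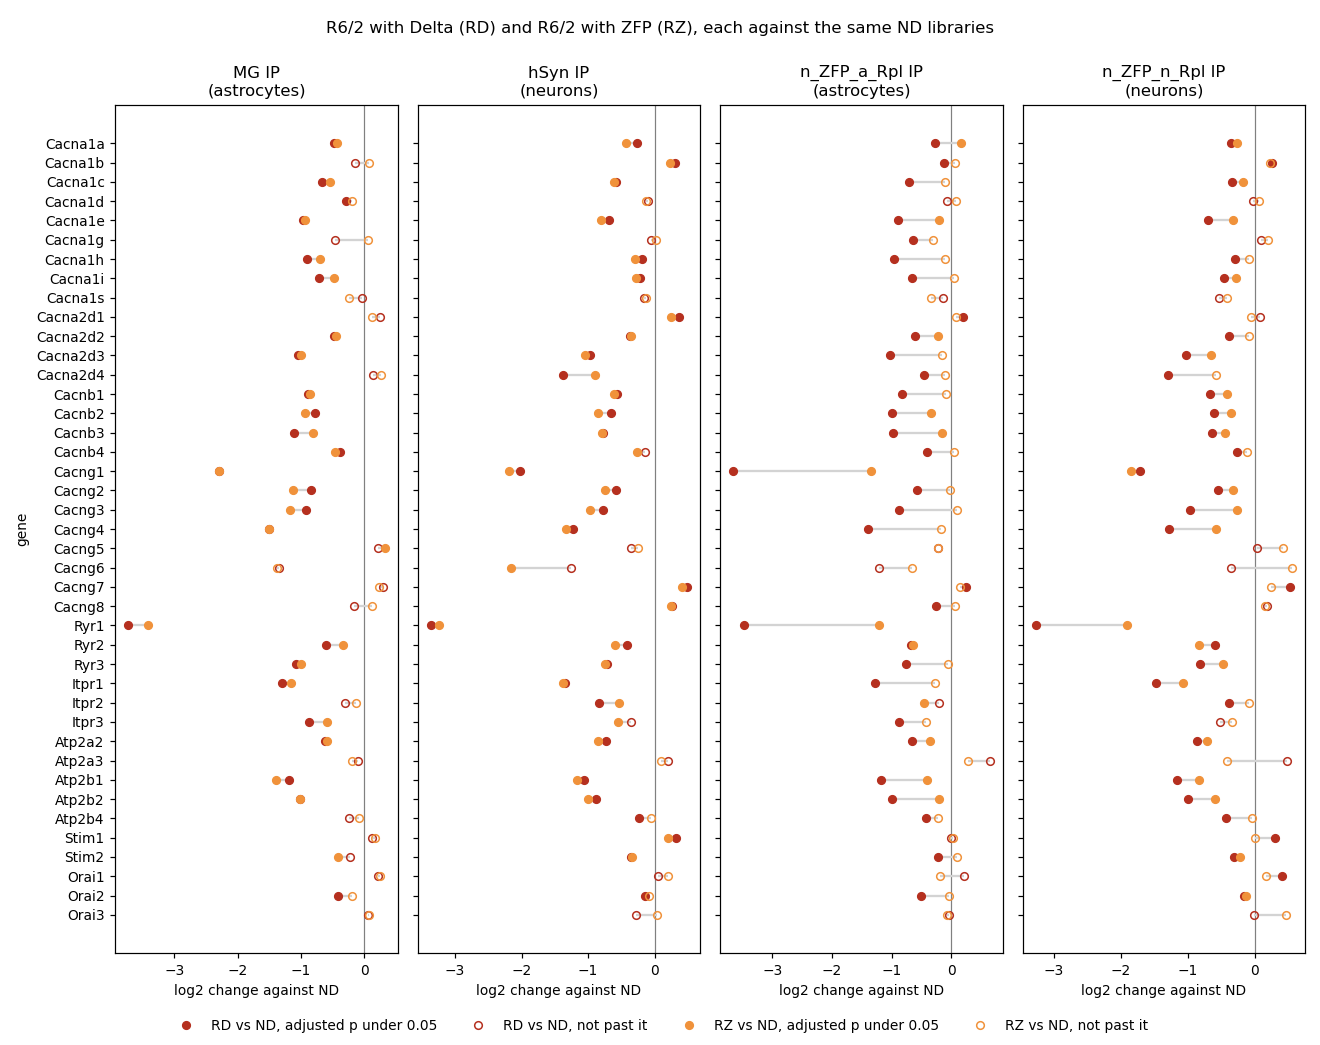
Log2 change against the same ND libraries of RD and of RZ (points, x axis) for each gene (rows) in the 4 pulldowns (panels). Most RD and RZ points lie close together in the MG and hSyn panels, and in the n_ZFP_a_Rpl panel most RZ points lie near 0, with Ryr1 (-1.22), Cacng1 (-1.35) and Ryr2 (-0.65) among those that do not.

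The ZFP also changed some calcium genes in NCAR mice. In the n_ZFP_n_Rpl neuron IP 7 were lower in NZ than in ND and 0 higher (4.5% and 2.86% of all genes): Itpr1 went from 4308, 4094, 4481 and 4431 CPM to 3352, 3152, 3306 and 3651 CPM (-0.36 (SE 0.074, adjusted p = 0.0109)), Atp2a2 from 2003, 1743, 1829.98 and 1872 CPM to 1518, 1523, 1508 and 1430.3 CPM (-0.32 (SE 0.047, adjusted p = 0.00153)) and Atp2b1 from 2526, 2300.2, 2685 and 2584 CPM to 1959, 1792, 1942 and 2132 CPM (-0.37 (SE 0.07, adjusted p = 0.00806)). NZ lay below ND in every library for these 3. In that IP 2 of 12 astrocyte markers were higher and 0 of 14 projection neuron markers passed, with projection neuron sums of 10805 to 16352 CPM in ND and 8310.3 to 11298 CPM in NZ. Cacna1i (-0.30), Cacng1 (-0.94), Atp2b2 (-0.21) and Stim1 (-0.16) also passed, but their calls were lost without ND replicate 4 and NZ replicate 3 for Cacna1i and in 7, 10 and 13 of 16 leave-one-out fits for the others. In the MG astrocyte IP Cacna2d1 (-0.46), Cacna2d3 (-0.31), Cacnb4 (-0.40), Atp2b1 (-0.58) and Stim2 (-0.38) were lower, and 0 higher (3.36% and 3.68% of all genes), but each call was lost in 5 to 10 of 16 leave-one-out fits, for all 5 without any 1 of ND replicates 1 to 3 or NZ replicates 3 and 5. There 7 of 14 projection neuron markers were lower too, with sums of 10585 to 11094 CPM in ND and 5804 to 10075 CPM in NZ, and Rn45s went from 0.105% to 0.314% of counts to 0.0306% to 0.0881%, shifts whose part was not tested. Within the n_ZFP_a_Rpl IP Cacnb3 alone passed, from 109, 104, 102 and 99.1 CPM to 128, 130.03, 118 and 125 CPM (0.28 (SE 0.047, adjusted p = 0.00452), against 1.2% of all genes higher and 0.872% lower). In the hSyn IP 0 passed in edgeR, with 1 at an unadjusted p under 0.05 and 0 by DESeq2 (0.0261% of all genes lower).

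The difference between the ZFP's change in R6/2 and in NCAR mice was tested as an interaction. For the n_ZFP_a_Rpl IP 22 of 41 passed, all with the higher change in R6/2 (11.4% of all genes were higher and 5.07% lower), and in the n_ZFP_n_Rpl IP 15 did, also all higher (8.47% higher and 4.68% lower). For Ryr1 it was 1.70 (SE 0.28, adjusted p = 0.00126) and 1.47 (SE 0.32, adjusted p = 0.00771), for Itpr1 0.88 and 0.76, for Atp2b1 0.79 and 0.69, and for Cacna1e 0.61 and 0.44. In the n_ZFP_n_Rpl set the NZ libraries of Itpr1, Atp2a2 and Atp2b1 lay below ND, which enters this difference. The calls of Ryr3 in the n_ZFP_a_Rpl IP (lost in 10 of 15 leave-one-out fits, 0.32 to 0.48) and of Cacna2d4 (12 of 16, 0.96 to 1.41), Cacnb2 (7 of 16, 0.41 to 0.56) and Cacng2 (11 of 16, 0.31 to 0.43) in the n_ZFP_n_Rpl IP were lost in the share of leave-one-out fits given. In the MG and hSyn IPs 0 passed (0% of all genes in both), with 15 and 2 at an unadjusted p under 0.05 in edgeR and 0 by DESeq2. The share of all genes at that unadjusted cut is not given here, so the 15 cannot be set against it.

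Levels in the pulldowns and in the tissue show where each gene's ribosome-bound RNA was read. Over the 4 conditions, 28 of 41 genes were higher in the hSyn neuron IP than in its Input and 10 lower (39.2% and 39.5% of all genes), and 24 and 10 in the n_ZFP_n_Rpl neuron IP (42.6% and 40.7%). In the n_ZFP_a_Rpl astrocyte IP 16 were higher and 20 lower (42.1% and 42.8%). Itpr2 was lower in the neuron pulldowns and higher in the astrocyte pulldown: ND libraries held 14.6, 15.3, 14.8 and 20.1 CPM in the n_ZFP_n_Rpl IP and 53.6, 54.9, 54.4 and 68.2 CPM in its Input, but 84.4, 89.3, 82.5 and 97.8 CPM in the n_ZFP_a_Rpl IP and 55.9, 55.8, 54.1 and 60.05 CPM in its Input. The log2 ratios of pulldown to Input over all conditions were -0.90 (hSyn), 0.74 (n_ZFP_a_Rpl) and -1.52 (n_ZFP_n_Rpl). Orai1 (-0.60, 0.47 and -0.86) and Orai3 (-0.93, 0.25 and -0.55) had the same order, all past the test.

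Orai2 had the opposite order (0.18, -0.67 and 0.28), at 47.1, 44.7, 44.5 and 51.6 CPM in the ND libraries of the n_ZFP_a_Rpl IP and 83.4, 82.5, 82.2 and 82.1 CPM in its Input, as did Cacnb4 (0.49, -0.38 and 0.37) and Cacng3 (0.50, -0.54 and 0.37). Itpr1 was higher in all 3 pulldowns than in Input, most in the neuron ones (0.57, 0.17 and 0.77), and Cacna2d2 was higher by about the same in all (0.65, 0.76 and 0.67). Ryr1, Ryr3, Itpr3, Atp2a3, Cacng7 and Cacna2d4 were lower in all 3 pulldowns than in Input, Itpr3 by -1.65, -1.61 and -1.72 and Ryr3 by -0.73, -1.04 and -0.88.

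**Figure D5:**
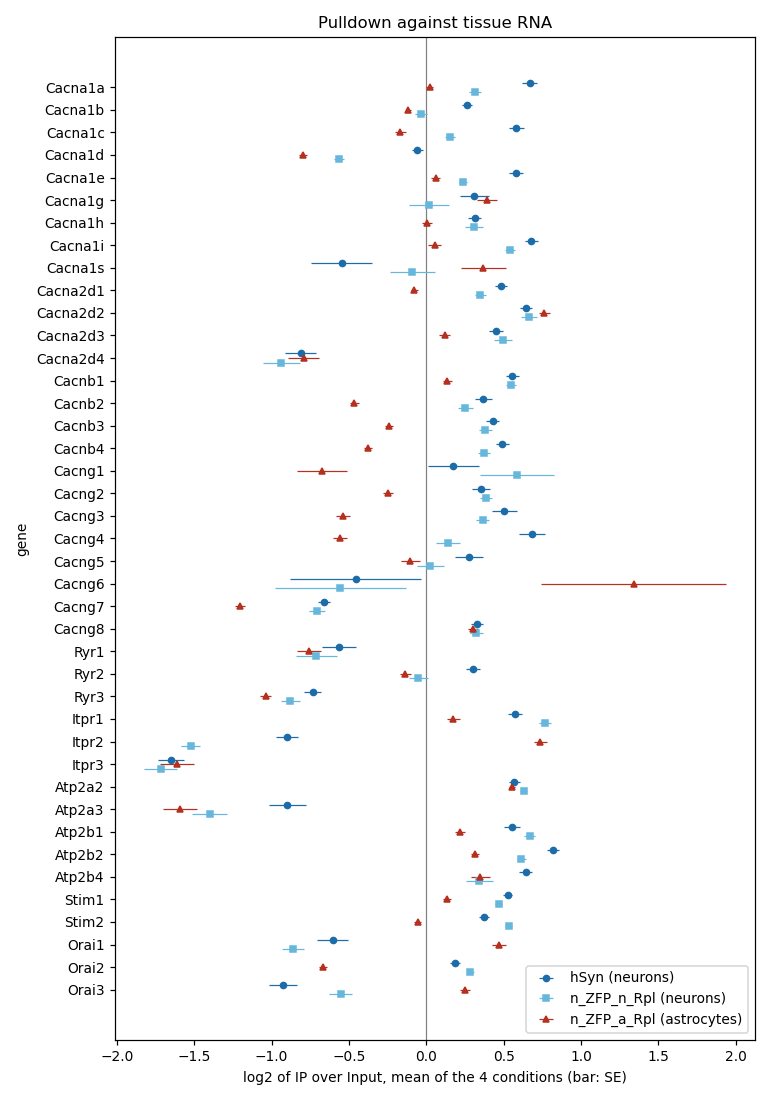
Log2 of pulldown over Input, mean of the 4 conditions (points, with bars of 1 SE), for each gene (rows) in the hSyn, n_ZFP_a_Rpl and n_ZFP_n_Rpl sets. Itpr2, Orai1 and Orai3 lie above 0 in the n_ZFP_a_Rpl set and below 0 in the neuron sets, while Orai2, Cacnb4 and Cacng3 lie the other way.

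Other calcium genes, from a list kept beside the 43, went mostly the same way in R6/2 mice. Of the 16 calcium buffers and sensors tested, 7, 13, 15 and 13 fell in the MG, hSyn, n_ZFP_a_Rpl and n_ZFP_n_Rpl IPs and 0, 1, 0 and 0 rose, where 16.2%, 25.5%, 24.7% and 26.2% of all genes fell and 17.4%, 25.4%, 20.6% and 25.2% rose. Kcnip2, the potassium channel partner that led them, fell by 1.83, 1.40, 1.66 and 1.28. Of the calmodulin-dependent kinases and calcineurin subunits 10 fell in each pulldown, of 15 tested (14 in the hSyn IP), led by Camk1g in the MG, hSyn and n_ZFP_n_Rpl IPs (-1.63, -2.84 and -2.23) and by Camk4 in the n_ZFP_a_Rpl IP (-1.94), and 1, 2, 0 and 0 rose. Of the sodium-calcium exchangers 4 fell in each, of 6 or 7 tested, led by Slc8a2 (-1.60, -1.29, -1.55 and -1.23), and 0, 1, 0 and 1 rose. The mitochondrial calcium transport genes were counted too: of 8 tested, 2, 3, 4 and 4 rose and 0, 1, 1 and 0 fell, with Micu2, a regulator of the mitochondrial uniporter, at 0.54, 0.28, 0.53 and 0.41. The 23 store and channel partners tested divided, with 9, 9, 10 and 11 lower and 1, 6, 3 and 4 higher, the 6 of the hSyn IP being near the share of all genes that rose there.

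With the ZFP in R6/2 mice, 12 of the 16 buffers and sensors rose in the n_ZFP_a_Rpl IP and 9 in the n_ZFP_n_Rpl IP, and 10 and 8 of the 15 kinases and calcineurin subunits did, with 1 and 0 lower, where 19.1% and 9.47% of all genes rose. Of the 8 mitochondrial genes 1 and 0 rose and 2 and 1 fell, and of the 23 partners 11 and 4 rose and 1 and 0 fell. Camk4 rose by 1.77 and 0.69, Camk1g by 1.32 and 1.29, Kcnip2 by 1.27 and 0.39 and Slc8a2 by 1.29 and 0.56, while Micu2 fell by 0.35 and 0.29.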

How the data were processed

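Reads were aligned with STAR to mm10 and counted per gene with HTSeq, per the submitters' processing notes, and the libraries were made with a TruSeq kit, per the labels' protocols. Versions, options and any use of strand in counting were not given in the sources used here, so reads of overlapping antisense genes cannot be told apart. The authors deposited raw counts per gene, which were used unchanged. 4 rows with a repeated symbol were left out, leaving 24056. Genes were filtered with filterByExpr (minimum count 10, total 15), scaled by TMM and tested with edgeR 4.0.16 (robust quasi-likelihood, R 4.3.3, limma 3.58.1) in 1 fit per set and fraction over all conditions, with Benjamini-Hochberg adjustment over all genes tested and a threshold of 0.05. Pulldown against Input was fitted per set, and neuron against astrocyte pulldowns in 1 fit of the ND and RD libraries of the 4 pulldowns. CPM values use the scaled library sizes and do not account for transcript length, so genes are not compared with each other. SE is the standard error of the log2 change. Counts at an unadjusted p under 0.05 are given without the share of all genes at that cut. Alternatives were DESeq2 1.42.0, RLE factors, no filter, the replicate number as a block, only the 2 groups compared, and leaving out each library. In the n_ZFP_a_Rpl and n_ZFP_n_Rpl sets, pulldown and Input of 1 number deviated together (15 of 15 and 16 of 16 pairs above 0.1), so the blocked values stand beside that comparison. No pair of replicates among 164 was identical. The tests were tried on simulated data: of genes changed by log2 0.5, 1 and 2 in R6/2 against NCAR in the n_ZFP_n_Rpl IP (15019 genes), 56.1%, 80.3% and 93.9% were recovered. A far smaller share of genes was changed there than was called in the real comparison, so the real rates may differ. Values of every ND and RD pulldown library are given for 2 kinds of gene in each role group. These are the gene with the largest mean absolute R6/2 change over the 4 pulldowns (of those called in at least 2) and the gene with the highest mean CPM in ND. Cacng1 is the exception, with full ND and RD values in the n_ZFP_a_Rpl IP alone. Of the 2 genes called in opposite directions, Cacna1b is shown by library in the hSyn and n_ZFP_a_Rpl IPs, and Cacng8 by its log2 changes only. Genes called in an interaction or kept out by the filter are named with values, and further genes were shown after their values were seen. The members and lists were chosen with earlier results of these data known. The promoter windows and gene positions are RefSeq's, on GRCm38.p6.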

Additional observations from a re-analysis of the deposited data

Results flagged for a closer look

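The highest or lowest library lay far from the others of its group (Dixon's test) in 12 of 182 groups of 4 or 5 libraries, which is 6.59%, where chance gives about 1 in 20. In the n_ZFP_a_Rpl IP, RZ replicate 2 held 2482 CPM of Itpr1 and 786 CPM of Cacna1e, RZ replicate 4 held 23.1 CPM of Ryr1 and RZ replicate 1 held 254 CPM of Ryr2, each above the other RZ libraries. There, ND replicate 3 held 1.12 CPM of Cacng1, above the others, and NZ replicate 3 held 90.0 CPM of Stim2, below them. In the n_ZFP_n_Rpl IP, NZ replicate 4 held 1430.3 CPM of Atp2a2, below the other NZ libraries, and RD replicate 2 held 125 CPM of Stim2, above the other RD libraries. In the hSyn IP, Itpr1 stood at 1708 CPM in RZ replicate 4, above the others, and Cacng1 at 1.03 CPM in ND replicate 1, below, and at 1.96 CPM in NZ replicate 3, above. In the MG IP, Cacng3 stood at 19.3 CPM in RZ replicate 1, above the other RZ libraries.

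The ZFP's log2 change in R6/2 mice minus that in NCAR mice passed edgeR's quasi-likelihood test for 22 genes in the n_ZFP_a_Rpl IP: Cacna1a at 0.28, Cacna1e at 0.61, Cacna1h at 0.82, Cacna1i at 0.62, Cacna2d2 at 0.55, Cacna2d3 at 0.78, Cacnb1 at 0.61, Cacnb2 at 0.61, Cacnb3 at 0.53, Cacnb4 at 0.47, Cacng1 at 2.77, Cacng2 at 0.48, Cacng3 at 0.77, Cacng4 at 1.11, Cacng8 at 0.34, Ryr1 at 1.70, Ryr3 at 0.40, Itpr1 at 0.88, Atp2a2 at 0.45, Atp2b1 at 0.79, Atp2b2 at 0.70 and Orai2 at 0.43. It passed for 15 genes in the n_ZFP_n_Rpl IP: Cacna1e at 0.44, Cacna1i at 0.47, Cacna2d3 at 0.69, Cacna2d4 at 1.11, Cacnb1 at 0.38, Cacnb2 at 0.49, Cacng2 at 0.39, Cacng3 at 0.54, Cacng4 at 1.09, Ryr1 at 1.47, Ryr3 at 0.68, Itpr1 at 0.76, Atp2a2 at 0.46, Atp2b1 at 0.69 and Atp2b2 at 0.61. The R6/2 change in the neuron pulldowns minus that in the astrocyte pulldowns passed for 11 genes: Cacna1b at 0.41, Cacna1c at 0.24, Cacna1h at 0.70, Cacna1i at 0.36, Cacna2d4 at -1.17, Cacnb1 at 0.24, Cacnb3 at 0.34, Cacng1 at 1.11, Cacng8 at 0.44, Stim1 at 0.26 and Orai2 at 0.32. The R6/2 change in the pulldown minus that in the Input passed for Orai3 at 0.42 in the n_ZFP_a_Rpl set.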

How the results depend on the processing

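The R6/2 counts in every pulldown and Input stayed within 1.5 times under DESeq2, RLE factors, no filter, the replicate block, a fit of only the 2 groups compared and leave-one-out, and no called gene reversed. Counts of called genes that moved further were these. For ZFP against Delta in R6/2 mice, the MG IP went from 0 to 1 with DESeq2 and 0 to 4 over leave-one-out (4 without RZ replicate 1), and the n_ZFP_n_Rpl Input from 6 to 10 with DESeq2, 10 with only the 2 groups and 2 to 8 over leave-one-out (2 without RZ replicate 2, 3 without RD replicate 4). In NCAR mice, the MG IP went from 5 to 8 with RLE factors, 10 with DESeq2 and 0 to 10 over leave-one-out, the n_ZFP_a_Rpl IP from 1 to 5 with DESeq2 and 1 to 3 over leave-one-out, and the n_ZFP_n_Rpl IP from 7 to 4 with no filter and 3 to 10 over leave-one-out. The pulldown minus Input count in the n_ZFP_a_Rpl set was 0 to 1 over leave-one-out. The causes were not tested.

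With the replicate number as a block, the NCAR count was 0 in the MG IP and 3 in the n_ZFP_a_Rpl IP, and the pulldown minus Input count was 2 (hSyn), 2 (n_ZFP_a_Rpl) and 12 (n_ZFP_n_Rpl). The shares of all genes in these blocked fits are not given here. The block moved no other count by over 1.5 times. Numbers did not pair conditions: 7 of 21, 3 of 19, 3 of 21 and 9 of 24 same-numbered pairs correlated above 0.1 in the MG, hSyn, n_ZFP_a_Rpl and n_ZFP_n_Rpl IPs. In the hSyn set 11 of 14 pulldown and Input pairs did. Counting error takes a larger share of values of a few CPM, as for Cacng1, Cacna2d4, Itpr3 and Atp2a3, although Cacng1 was called in all 4 pulldowns.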

Other observations

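Cacng6, which encodes a gamma subunit of muscle calcium channels, had counts that ranged 10-fold or more within a group in 16 of 28 groups, with a count of 0 taken as 1, and no other tested member had such a range in any. Cacng1, at 0 to 9 counts in RD of the n_ZFP_n_Rpl Input, stays under it only through that floor. Cacng6 fell under 10 counts in 25 of the 110 libraries, a minimum chosen after its values were seen, and the low libraries came from every condition. In the n_ZFP_a_Rpl IP, ND replicates 1 and 3, NZ replicate 3 and RD replicate 1 held 3, 4, 8 and 1 counts, while the others held 49 to 271. The Inputs with the same numbers held 1, 2, 2 and 2 counts, against 16 to 72 in the others. In the n_ZFP_n_Rpl IP, ND replicate 2, NZ replicate 3 and RD replicates 2 and 4 held 7, 3, 5 and 4 counts, against 18 to 108, and their Inputs 4, 4, 5 and 7, against 24 to 119. Over the 3 sets with an Input, pulldown and Input of 1 number lay on the same side of 10 counts in 45 of 45 cases, 11 of them under it in both. Cacng6 passed the test of R6/2 against NCAR in no pulldown.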
